A study of Drosophila melanogaster with 6 samples.

Results

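The 23 genes described here had lower measured RNA levels in each DNMT3L brain library than in any control library of the same study. They were chosen by the measurement itself, from the 17737 genes of the deposited count table. A gene was taken if each of the 3 controls had 15 or more counts and the lowest control was at least 2 times the highest of the 3 DNMT3L libraries in CPM, the count of a gene scaled to a common library total. Genes with symbols starting with Cpr or Lcp (mainly cuticle proteins) or Gst (glutathione transferases), and the storage protein gene Lsp1gamma, were to be left out. Of the 58 such genes with enough counts, 0 reached the limit (Lcp65Ag1 came nearest, at 1.72), so their removal changed nothing. Of the remaining 8604 genes with enough counts, 23 (0.267%) met the rule. The same rule turned round, for genes higher in DNMT3L, was met by 52 of 8697 genes (0.598%). Because the control-to-DNMT3L difference chose these genes, it is given below as a description, without a test.

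The samples were Drosophila melanogaster larval brains at the third instar, in 2 groups of 3 RNA-seq libraries. The controls carried elavC155-Gal4, which expresses the yeast activator Gal4 in neurons. For the DNMT3L group this driver was crossed to w/w flies with the Gal4-inducible transgene P(UAS-DNMT3L,w+) over the balancer chromosome Cyo and with the balancers TM2/TM6B. The mammalian protein DNMT3L is itself not an enzyme and acts as a partner of DNA methyltransferases. Both groups therefore shared the driver, and only the DNMT3L group had the other stock as a parent. The labels give neither the sex of the larvae, nor the number of brains in a library, nor whether larvae with the transgene were picked out, and nothing says that the replicates were separate collections.

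Total counts lay between 17928420 and 19251845 per library, so that 3 counts corresponded to 0.156 to 0.167 CPM. Control 1 stood apart, with a TMM scaling factor of 0.855 against 0.970 to 1.08 in the other 5 libraries, and control 3 held a group of very abundant transcripts that is described below. Under edgeR's quasi-likelihood test over the whole table, 0 of 9495 genes (0%) passed a Benjamini-Hochberg adjusted p of 0.05, with 1427 genes at an unadjusted p under 0.05, while DESeq2 called 260 genes. Groups did not overlap, with the controls higher, for 706 of the 8662 genes that had 15 or more counts in each control (8.15%), and with DNMT3L higher for 1862 of them (21.5%).

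A dissected larval brain usually carries along small amounts of tissue attached to it or lying beside it. Next to the brain lie the ring gland, tracheal branches, the proventriculus at the entry of the midgut, garland nephrocytes, which filter the hemolymph, and circulating blood cells. The proventriculus secretes the peritrophic matrix, a sheath of chitin fibres and chitin-binding proteins that lines the midgut. In RNA from whole brains, fewer cells of a type and less RNA in each cell cannot be told apart.

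Most of the 23 genes had low levels. On the authors' FPKM scale, which corrects for exon length, the median over the members of their median control level was 2.38, against 15.03 over all genes with 15 or more counts in each control. The highest were CG9572 with a median control FPKM of 17.7, CG3649 with 11.5 and the stomatin-related gene Mec2 with 10.1. The other 20 were all under 5 FPKM. In the DNMT3L libraries the counts of the members ran from 0 to 151 reads, and 6 members had 15 or more counts in all 3 of them.

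**Figure D1:**
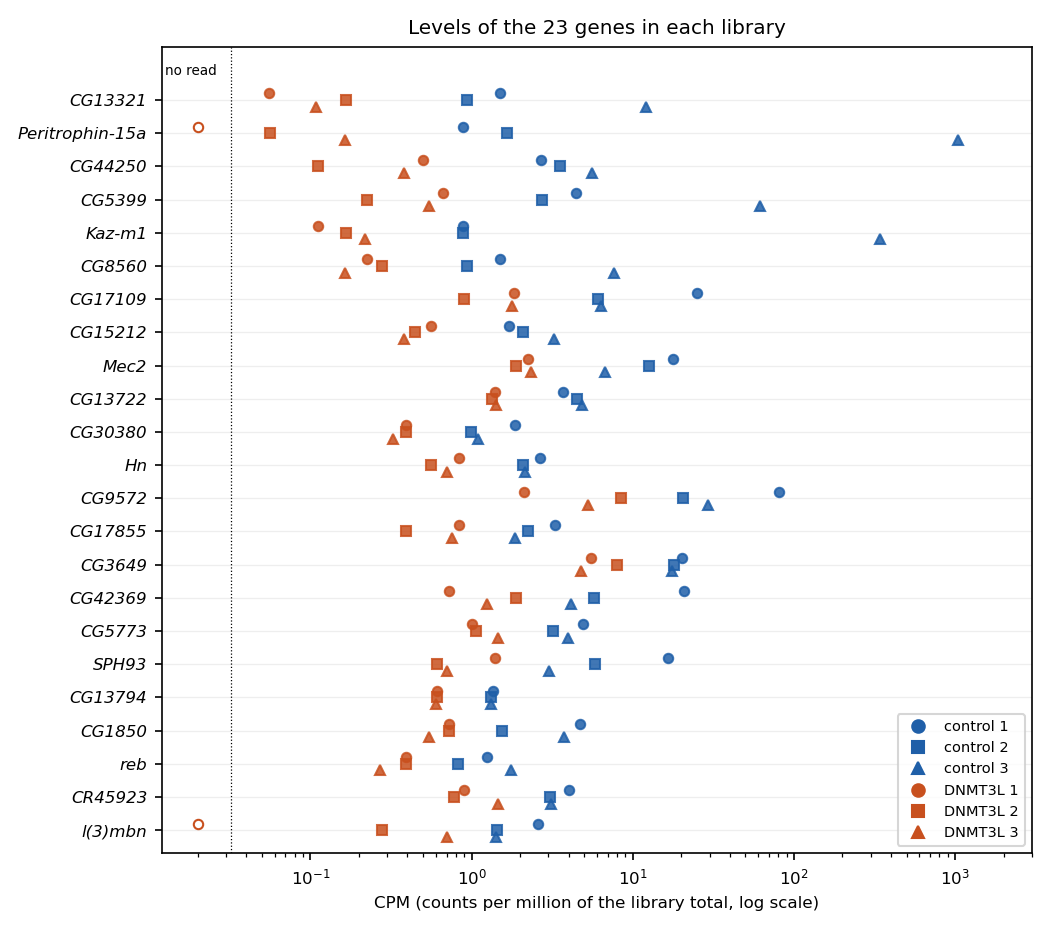
CPM of each of the 23 genes in the 6 libraries on a log axis, ordered by the ratio of the lowest control to the highest DNMT3L library (highest on top). Blue symbols are controls and orange ones DNMT3L libraries, offset vertically by replicate number; open symbols at the left mark libraries with no read (Peritrophin-15a and l(3)mbn in DNMT3L 1). In 5 genes control 3 lies far to the right of the other controls, and in 4 genes control 1 does.

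The controls were not alike over these genes. Control 1 was the highest control for 14 members, control 3 for 9 and control 2 for none, whereas over all genes with enough counts control 1 was highest for 34.7% and control 3 for 15.3%. In 5 members control 3 was at least 5 times either other control, in 4 members control 1 was at least 2 times either other control, and the other 14 had neither pattern.

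Peritrophin-15a, whose product is a chitin-binding protein of the peritrophic matrix, had 17, 30 and 19026 reads in controls 1 to 3 and 0, 1 and 3 reads in DNMT3L libraries 1 to 3. Control 3 was thus 630 times the next control in CPM. The comparison that chose the gene rested on 17 reads in control 1 against 3 reads in DNMT3L 3, a CPM ratio of 5.42 with an exact 95% counting interval of 1.57 to 28.8. The interval covers counting error only and makes no allowance for the choice of the gene by this same ratio. The gene lies on 2L from 8395665 to 8396096, minus strand, with 361 exonic bases in 2 exons. Its neighbour and relative Peritrophin-15b, which begins 724 bases away, had no read in any library.

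Kaz-m1, which encodes a Kazal-type inhibitor of serine proteases, had the same pattern, with 17, 16 and 6253 reads in the controls and 2, 3 and 4 reads in DNMT3L. Control 3 was 387 times the next control. Kaz-m1 lies inside the Enhancer of split complex on 3R (26014721 to 26016487, plus strand), between genes of the Bearded family, which restrain Notch signalling. Its neighbour E(spl)m2-BFM was at 1273, 969 and 940 reads in controls and 705, 1040 and 703 in DNMT3L, so the groups overlapped there. The noncoding gene CR45040 (26015516 to 26016487) shares 972 of the 1705 exonic bases of Kaz-m1 on the same strand and had no read in any library. How reads of the shared bases were counted is not stated, so the counts of both genes are uncertain there.

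CG5399 had 85, 50 and 1125 reads in controls and 12, 4 and 10 in DNMT3L, with control 3 at 13.9 times the next control. CG13321, annotated to neurogenesis, had 29, 17 and 221 reads against 1, 3 and 2. CG8560, annotated as a zinc metallocarboxypeptidase, had 29, 17 and 141 against 4, 5 and 3. Controls 1 and 2 had 17 to 85 reads of these 3 genes and DNMT3L 1 to 12, a separation that the rule fixed. For CG13321 the lowest control was 5.59 times the highest DNMT3L library, the highest ratio of all 23, with a 95% counting interval of 1.62 to 29.8.

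The pattern of Peritrophin-15a and Kaz-m1 was shared by a broader set of genes. With a limit chosen after the values were seen, 27 genes had at least 1000 reads in control 3 and at least 30 times the CPM of any other library, and together they took 1.15% of all reads of control 3. Of the 27, 17 carried the term chitin binding in the deposited annotation, out of 93 genes with this term in the whole table. Some functional terms of that table look misplaced, so this count is only as good as the deposited terms. The most abundant was CG34282 with 23742 reads in control 3, and the set also held the mucin genes Muc96D and Muc26B, the chitin-binding obstructor genes obst-F and obst-J and the chitin deacetylase gene Cda9. Peritrophin-15a and Kaz-m1 were the members among the 27.

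The 25 others of this set allow a comparison of controls 1 and 2. Control 2 had reads for all 25, at a median of 0.185% of the count in control 3 and 0.157% to 0.249% at the quartiles. Control 1 had 0 reads for 11 of them and a median of 0.00947%, and the medians were 0.0282% in DNMT3L 1 and 0% in DNMT3L 2 and DNMT3L 3. In control 2, Peritrophin-15a stood at 0.158% and Kaz-m1 at 0.256% of control 3, the first within the quartiles of the 25 others and the second just above the upper one. At the median share, control 2 would hold 35.3 reads of Peritrophin-15a and 11.6 of Kaz-m1, beside the 30 and 16 observed, while for CG5399, CG13321 and CG8560 it would hold 2.08, 0.41 and 0.261 reads beside 50, 17 and 17. Neither of the first pair met the count minimum once this share was subtracted, and the other 3 kept their place. In control 1 both genes had 17 reads, where 1 of the 25 others reached 15. The rule required 15 or more reads in each control, so this difference from the others was fixed by the choice of the genes. Whether the 30 and 16 reads in control 2 came from its own RNA, or were reads of control 3 assigned or carried over to it, was not tested.

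**Figure D2:**
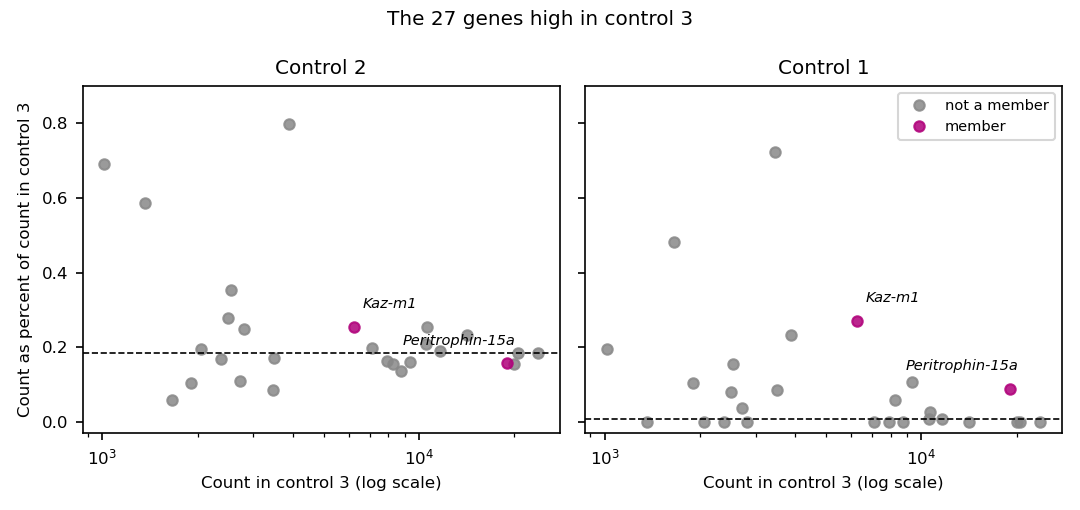
Reads in control 2 (left) and control 1 (right) as a percent of the reads in control 3, against the count in control 3 on a log axis, for the 27 genes that were at least 30 times higher in control 3 than in any other library. Dashed lines are the medians of the 25 genes that are not members (0.185% in control 2 and 0.00947% in control 1); Peritrophin-15a and Kaz-m1 lie near the line in control 2 and above it in control 1.

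Digestive enzyme genes did not share this pattern. The summed level of 24 gut genes, mostly trypsins, Jonah proteases, amylases, maltases and lysozymes, was 62.3, 50.2 and 42.6 CPM in controls 1 to 3 and 19.34, 27.7 and 39.9 CPM in DNMT3L 1 to 3, lowest among the controls in control 3. Of the 10 gut genes tested, 8 had negative log2 fold changes with a median of −1.10, against a median of −0.03 over all 9495 genes, and edgeR called none. The gut list, in which 7 genes had enough counts for the rule, holds none of the 23 members. Mal-A7 had no read in any library, and the part of gut tissue in the result was not tested.

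In 4 members control 1 was the high library. CG9572, named aspr in the current annotation, was at 80.3, 20.4 and 29.5 CPM in the controls and 2.12, 8.42 and 5.27 CPM in DNMT3L. CG17109, annotated as an aminoacylase, an enzyme that frees amino acids from their N-acyl derivatives, was at 24.98, 6.10 and 6.39 CPM against 1.84, 0.892 and 1.79 CPM. CG42369 was at 20.9, 5.77 and 4.15 CPM against 0.725, 1.896 and 1.25 CPM. In each of them control 1 was more than 2 times the next control.

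SPH93, a serine protease homolog annotated to the defence against Gram-positive bacteria, was at 16.6, 5.83 and 3.01 CPM in the controls and 1.39, 0.614 and 0.707 CPM in DNMT3L. Without control 1 the log2 fold change (DNMT3L minus control) of these 4 genes lay between −2.37 and −2.04, compared with −3.45 to −3.23 over all libraries.

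PPO1 and PPO2 encode prophenoloxidases of crystal cells, the blood cells that melanise wounds. PPO1 was at 214.6 CPM in control 1, 55.4 in control 2 and 36.3 in control 3, and at 26.0, 21.6 and 32.9 CPM in DNMT3L. The summed level of the crystal cell genes PPO1, PPO2 and lz, a list added after values were seen, was 489 CPM in control 1, 112 to 157 in the other controls and 73.7 to 104 in DNMT3L, and 0 members were on it. The sum rests on PPO1 and PPO2, since lz was lowest among the controls in control 1, at 12.6 CPM against 18.2 and 15.1. The list of 22 hemocyte and basement membrane genes also holds PPO1, PPO2 and lz. It summed to 1833, 1967 and 1412 CPM in controls 1 to 3, compared with 1275 to 1371 CPM in DNMT3L. Control 1 was not the highest in this sum, but genes on the list differed in their order among the controls. The hemocyte gene He was at 46.3, 22.3 and 9.84 CPM in controls 1 to 3, whereas the laminin gene LanB1 was at 191, 340 and 281 CPM. Of the 22 log2 fold changes 21 were negative, with a median of −0.86, and edgeR called none. Whether blood cell RNA had a part in the level of the 4 genes was not tested.

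The other 14 members had neither of these patterns in control 1 or control 3. They are given by role, mostly as annotated, beginning with transport and metabolism. CG3649, annotated to transmembrane transport, had 20.1, 18.0 and 17.5 CPM in the controls and 5.52, 7.98 and 4.78 CPM in DNMT3L, with means of 18.5 ± 1.38 and 6.09 ± 1.67 CPM (SD, n = 3 each). Its exons overlap those of CG13531 on the opposite strand by 80 bases. CG13531 had 265 to 508 reads in controls and 425 to 730 in DNMT3L, so its groups overlapped. Whether counting used the strand is not stated, so reads of the shared stretch cannot be assigned.

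CG13794, annotated as a sodium-dependent neurotransmitter symporter, had 26, 24 and 24 reads in the controls and 11 in each DNMT3L library. It had the smallest SD relative to the mean of all members in both groups, at 1.33 ± 0.0205 CPM in the control libraries and 0.608 ± 0.00897 CPM in DNMT3L, although counts this low carry a counting interval of 1.01 to 4.83 around the ratio of 2.14. It sits in a row of related transporter genes on 2L. The nearest, CG13795 at 221 bases, had 40, 16 and 62 reads in controls and 24, 18 and 31 in DNMT3L, and CG13796 had 30, 38 and 46 against 38, 42 and 64. In both of these relatives the groups overlapped.

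Hn encodes phenylalanine hydroxylase, which turns phenylalanine into tyrosine, the precursor of dopamine and of cuticle pigments. It had 51, 38 and 39 reads in the controls and 15, 10 and 13 in DNMT3L, a ratio of lowest control to highest DNMT3L of 2.50 (95% counting interval 1.34 to 4.89). Hn ends 66 bases from the clock gene Clk, which runs towards it and had between 0 and 5 reads in each library.

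Mec2 encodes a membrane protein of the stomatin family and is annotated in the deposited table to the nephrocyte diaphragm, the filtration slit of insect nephrocytes. It had 17.7, 12.5 and 6.72 CPM in controls, compared with 2.23, 1.896 and 2.34 CPM in DNMT3L, so the controls differed by more among themselves than the DNMT3L libraries did. Nephrocyte genes chosen after these values were seen (sns, kirre, Cubn, Amnionless, Klf15 and Hand) did not follow it. Of the 5 tested, 2 were negative and 3 positive, with a median log2 fold change of 0.54 and none called by edgeR, and their summed level was 30.4 to 81.0 CPM in controls, compared with 65.6 to 157 CPM in DNMT3L. Several of them are also used in neurons or muscle. Klf15, the most restricted of the list, was at 0.364 CPM in control 1, 0.110 in control 2 and 0.109 in control 3. In DNMT3L only library 3 had reads, at 0.109 CPM. Only the control 1 value lay above the level of 3 counts, so no direction can be read from Klf15.

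A pair of members is tied to chitin or cuticle. l(3)mbn, annotated as a structural constituent of cuticle, had 50, 26 and 26 reads in the controls and 0, 5 and 13 in DNMT3L, and it lies beside a run of Lcp65A larval cuticle genes on 3L. Its exons overlap the noncoding gene CR46005 on the opposite strand by 1128 bases, so its counts are uncertain. Lcp65Ag3, 1578 bases away, had 15, 13 and 20 reads in controls and 0, 2 and 2 in DNMT3L and missed the rule by its count in control 2 as well as by its name. reb, rebuf, which is needed together with its relative expansion for chitin deposition in the embryonic tracheal tube, had 24, 15 and 32 reads against 7, 7 and 5. The deposited terms of reb are intracellular and regulation of transcription, and none names chitin. Here the 95% counting interval of the ratio of 2.11 reached from 0.811 to 6.13, and that of l(3)mbn from 0.997 to 4.26, so in these members the lowest control and the highest DNMT3L library were not separated beyond counting error.

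The 23 members include no gene of the tracheal list, in which 15 genes had enough counts for the rule. The summed level of its 17 genes was 1442 to 1634 CPM in the controls, compared with 968 to 1262 CPM in DNMT3L, without overlap. Of the 16 tested, 14 had negative log2 fold changes with a median of −0.55, and edgeR called none. In 8 of the 15 with enough counts the controls did not overlap with DNMT3L and were higher, compared with 8.15% of all such genes. Gasp, a chitin-binding protein of the tracheal lining, was at 145.9, 117.8 and 154.0 CPM against 91.5, 100.7 and 59.1 CPM. These lists were drawn up with earlier results of the data known.

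Of the 8 remaining members, 7 are protein-coding genes without a functional term in the deposited table and 1 is a noncoding RNA. CG44250 was at 2.70, 3.52 and 5.57 CPM in the controls and 0.502, 0.112 and 0.380 CPM in DNMT3L, a ratio of lowest control to highest DNMT3L of 5.38 with a counting interval of 2.63 to 12.4. CG15212 was at 1.71, 2.09 and 3.22 CPM against 0.557, 0.446 and 0.380 CPM. CG13722 was at 3.69, 4.51 and 4.86 CPM against 1.39, 1.34 and 1.41 CPM. The DNMT3L values were close together for CG13722 and spread from 2 to 9 reads for CG44250.

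CG5773 was at 4.88, 3.19 and 3.99 CPM in the controls and 1.00, 1.06 and 1.47 CPM in DNMT3L. CG1850 was at 4.67, 1.54 and 3.77 CPM against 0.725, 0.725 and 0.543 CPM, with control 2 well below the other controls. CG17855 was at 3.27, 2.25 and 1.86 CPM against 0.836, 0.390 and 0.761 CPM. The intronless gene CG30380, of 459 bases, had 36, 18 and 20 reads against 7, 7 and 6, and the interval of its ratio began at 1.01. The noncoding gene CR45923, now named lncRNA:dntRL, was at 4.05, 3.08 and 3.12 CPM in the controls and 0.892, 0.781 and 1.47 CPM in DNMT3L.

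The limit of 2 cut through a continuous range of values. Just inside it lay reb at 2.11, CR45923 at 2.10 and l(3)mbn at 2.01, and just outside CG13659 at 1.998, CG32645 at 1.98 and CG7953 at 1.899. CG13659 had 23, 33 and 22 reads in controls and 10, 10 and 11 in DNMT3L. Over the 23 members the ratio had a median of 2.50, and its lower counting bound was below 1 in 2 members and at 2 or more in 4 (CG17109, Mec2, CG44250 and CG5399). These bounds come from the values that chose the genes, so they describe the depth of counting and are no test of a difference.

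**Figure D3:**
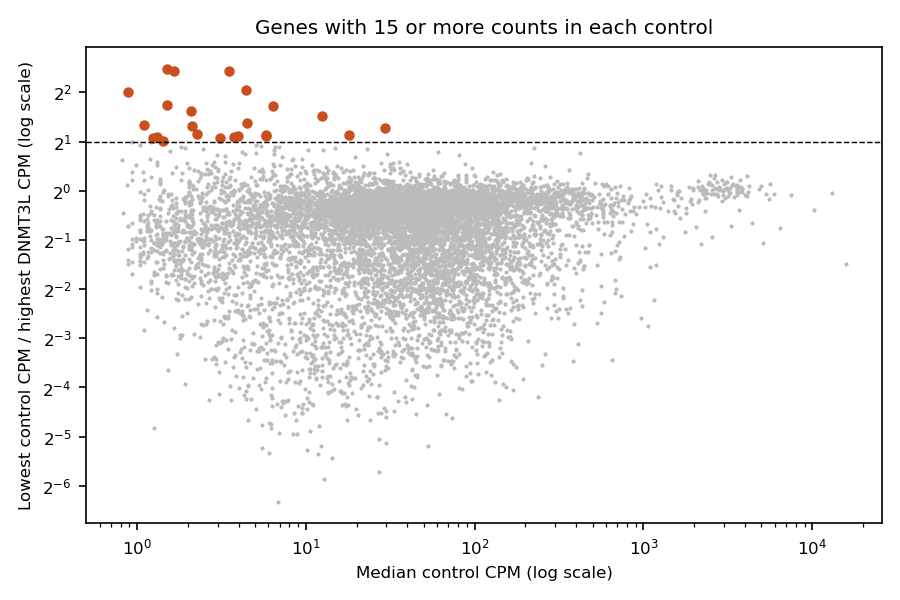
Ratio of the lowest control to the highest DNMT3L library against median control CPM, both on log axes, for the genes with 15 or more counts in each control (grey). The 23 genes at or above the limit of 2 (dashed line) are orange; they lie toward the low end of expression and join the grey cloud without a gap.

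The members were spread over the major chromosome arms. On 2R there were 8 of the 23 (34.8%), compared with 20.4% of all genes with enough counts, and 2L held 5, 3L 5, 3R 3 and X 2. The X had 8.70% of the members and 16.8% of the genes with enough counts. No chance test was made on these shares.

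CG13321 and CG44250 were the only members within 20 kb of each other. On 2R, CG44250 (12950404 to 12952293, minus strand) and CG13321 (12953112 to 12955712, plus strand) lie head to head, 818 bases apart. CG44251, which spans CG44250 and shares 121 exonic bases with it on the same strand, had 6, 5 and 27 reads in controls and 0 in each DNMT3L library. The counts of CG44250 and CG44251 may therefore be split between them, and all 3 genes at this place were lower in DNMT3L by the values given. The high control differed along the pair, with control 3 at 8.02 times the next control for CG13321 and 1.58 times for CG44250.

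Single members of gene rows were picked out elsewhere too. CG17109 lies within the span of Cow on 3R, in a row of genes annotated as aminoacylases. Its neighbour CG6733, 487 bases away, had 52, 4 and 10 reads in controls and 1, 0 and 0 in DNMT3L, with control 1 high as for CG17109, whereas CG6726, 505 bases to the other side, had 50, 36 and 45 reads against 25, 73 and 50. Cow itself, on the opposite strand, had 270 to 1501 reads in controls and 1563 to 2973 in DNMT3L. CG8560 lies among other metallocarboxypeptidase genes on 3L. Of these, CG8563 had 74, 11 and 57 reads against 14, 16 and 19, CG18417 had 2, 3 and 8 against 3, 1 and 7, and CG32379 had none. CG8562, 2419 bases away, had 2, 1 and 4 reads in controls and 0 in each DNMT3L library, so among these relatives only CG8562 had separate groups, at counts near the floor; CG8564 had 4, 17 and 7 reads against 10, 12 and 5.

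Of 114 further genes within 20 kb of a member that had enough counts, 13 (11.4%) had controls higher without overlap, against 8.15% over all such genes. Their median log2 fold change was −0.14, compared with −0.04. The neighbours that came nearest to the limit were Lcp65Ag1 and Lcp65Af beside l(3)mbn, at ratios of 1.72 and 1.69, and CG32241 near CG13722 at 1.70. SPH93 had a neighbour that was lower as well, CG18563, with 21, 24 and 16 reads in controls and 5, 12 and 4 in DNMT3L.

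Genes of long exonic length were missing among the members, which had 361 to 2603 exonic bases with a median of 1569. Over all genes with enough counts the median was 2240. The lower quartiles were alike, at 1360.5 bases for the members and 1368.25 for all such genes. The upper quartiles were 2035 and 3753.25 bases. With each library's trend on length removed from TMM-scaled levels, 23 genes met the rule. TMM scaling alone gave 34, with all 23 members among them. Of the 23 genes left after removal of the trend, 19 were members, while CG15212, CG17855, CG30380 and SPH93 fell out. In the annotation 22 members are protein-coding and 1 is noncoding, and 4 have a single exon. Exonic bases were shared with another gene in 4 members (17.4%), compared with 39.2% of genes with enough counts. CG17109, SPH93 and CG42369 lie within the span of a longer gene without sharing exons, a share of 13.0% compared with 4.09% of genes with enough counts. For CG42369 this is the adhesion gene DIP-epsilon on the same strand, with 38 to 160 reads in controls and 139 to 258 in DNMT3L, where the groups overlapped.

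A functional term was given for 12 of 23 (52.2%), against 74.0% of all genes with enough counts, and 16 of 23 (69.6%) bore a CG or CR number in place of a name, against 39.1%. No term was carried by more than 2 members. Proteolysis was shared by CG8560 and SPH93, and integral component of membrane by CG13794 and CG3649. None of the 23 was on any of the 14 lists of tissue markers or the 4 pathway lists. The longest lists had 22 genes with enough counts, and only 0.267% of genes with enough counts met the rule. The absence of members from lists this short, here and above, therefore says nothing about their tissue. The muscle list, as a further tissue beside the brain, had 19 of 23 genes negative with a median log2 fold change of −1.16, none called by edgeR, and 0 members. The lists for neurons and neuroblasts went the other way, with all 14 and all 10 genes positive and none called by edgeR. The summed neuron level was 287, 1085 and 872 CPM in controls 1 to 3 and 2354, 1359 and 1651 CPM in DNMT3L 1 to 3, lowest in control 1 and separate between the groups. The part that the makeup of the tissue had in the members' values was not tested. Negative log2 fold changes were had by 12 of 12 tested ring gland genes, 12 of 18 epidermal, 3 of 3 Malpighian tubule, 9 of 12 eye, 7 of 16 glial, 6 of 13 fat body, 1 of 4 oenocyte and 0 of 12 salivary gland genes. In the pathway lists these were 15 of 18 cytochrome P450, 11 of 15 peroxide defence, 5 of 8 juvenile hormone and 3 of 7 antimicrobial peptide genes, beside 52.3% of all genes tested, and edgeR called none of them.

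**Figure D4:**
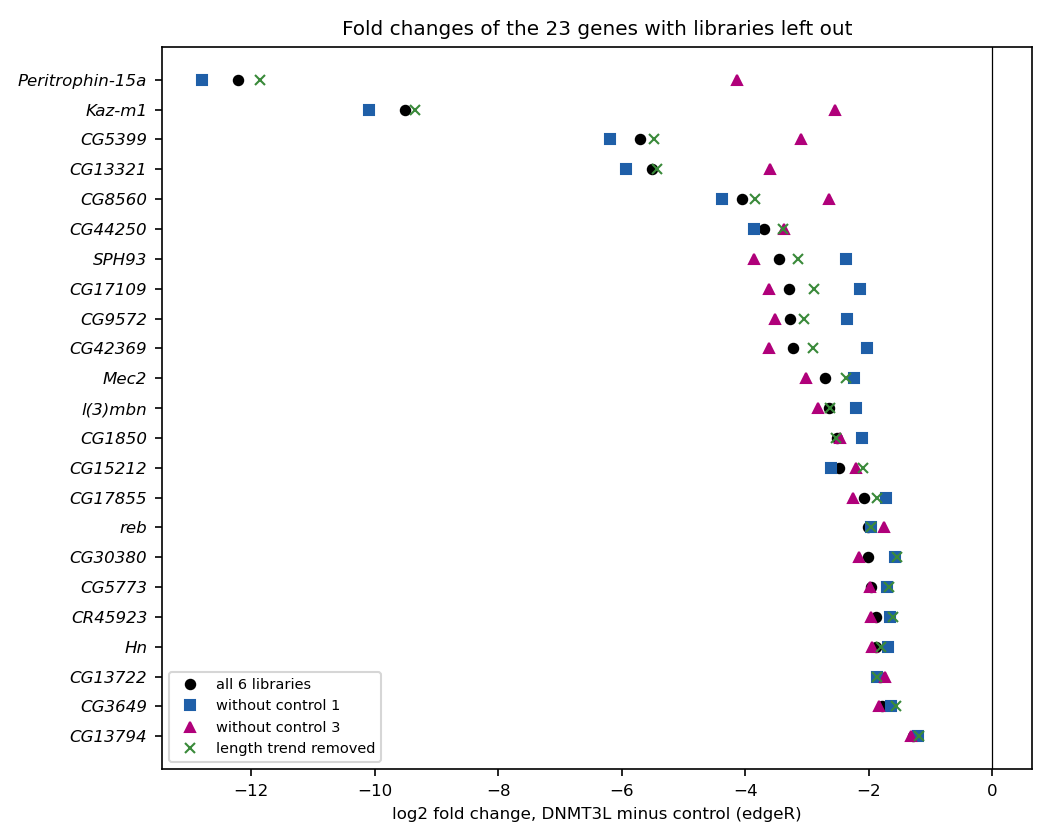
Fitted log2 fold change (DNMT3L minus control, edgeR) of each of the 23 genes with all 6 libraries (black circles), without control 1 (blue squares), without control 3 (magenta triangles) and with the length trend removed (green crosses). The sign below 0 follows from the choice of the genes; without control 3 Peritrophin-15a moves from −12.21 to −4.14 and Kaz-m1 from −9.51 to −2.55.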

How the data were processed

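Per the labels' protocols, RNA from larval brains was made into random-primed libraries after poly(A) isolation or rRNA removal. HISAT2 2.0.1 and HTSeq 0.6.1 are among the tools in the submitters' processing notes, which name BDGP6 and dm6 as builds. The sources used here do not state the strand setting or the annotation release. The authors' table holds deposited read counts per gene and, per the file headers, FPKM values. The authors' FPKM could be recomputed from count, exonic size and column total for 100% of values. Coordinates are those of the deposited table, and all 23 members had the same ones in Ensembl release 115 (BDGP6), from which exons, biotypes and overlaps were taken.

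CPM is the count scaled to a common column total. On this scale the median gene had a log2 fold change of 0.14, compared with −0.03 under TMM scaling. The whole table was fitted with edgeR 4.0.16 in R 4.3.3 (filterByExpr, TMM, glmQLFit, glmQLFTest, two-sided, Benjamini-Hochberg over 9495 genes). The fit was checked on simulated counts in which all libraries of a group had the same expected levels. That check does not cover controls that stand apart from one another. DESeq2 1.42.0 and limma 3.58.1 were the alternatives. Intervals of ratios are exact conditional binomial ones (scipy 1.17.1) at 95%, without allowance for the choice of genes by the same ratio. Members, lists and the rule for named genes (highest ratio, highest control level, neighbours within 20 kb, list genes, edges of the limit) were chosen with earlier results of these data known. Members outside that rule, the genes high in control 3, crystal cell and nephrocyte genes and neighbouring genes were named after their values were seen. Sequences are not reported here.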

Additional observations from a re-analysis of the deposited data

How the results depend on the processing

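The number of genes that met the rule was 23. It was 34 with TMM-scaled libraries and 33 with DESeq2 size factors. Removing the length trend from the TMM-scaled levels lowered the number from 34 to 23, of which 19 were members. It moved by more than 1.5 times with other limits, to 14 with 30 counts in each control, 89 with 1 count, 59 at a ratio of 1.5 and 8 at a ratio of 3. Leaving out 1 library gave 31 to 78 genes, and without controls 1 and 3 together 130. Fewer libraries can only add genes, so that the members stay by construction. Added after the data were seen, the DNMT3L mean in place of its highest library gave 61 genes, and subtracting from control 2 its median share of control 3 gave 20, without Peritrophin-15a, Kaz-m1 and reb (which had exactly 15 reads).

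Same-numbered libraries did not deviate together from their group means (correlations of −0.664, −0.542 and −0.181). Deviations from a group mean depend on one another, so these values cannot settle whether the numbers pair the samples. With the replicate block the rule, asked pair by pair, was met by 40 genes and edgeR called 0.

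edgeR called 0 genes, and 0 with any 1 library left out. It called 2 with DESeq2 size factors, 1 with total counts only, 6 without the low count filter and 13 with the length trend removed, all higher in DNMT3L. limma on log2(FPKM + 1) called 13, all higher, and DESeq2 called 260, of which 167 were lower. Over 13 alternatives the members' 299 log2 fold changes were negative, a sign that the choice of the genes fixes, and 246 stayed within the spread between replicates. That spread is wide where a single control stands far from the others, so staying within it says little for such genes. Of the 53 that moved further, 22 came from limma, whose pseudocount shrinks low genes. The cause of the other moves was not tested. Low counts limit most members.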
